A study of Drosophila melanogaster with 7 samples.

Results

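The cytosolic ribosome is built of a large and a small subunit. Each subunit holds ribosomal RNA and a set of ribosomal proteins, nearly all of which are needed in 1 copy per ribosome, so the mRNAs of these proteins are made in similar amounts and are among the most abundant in most cells. Growing tissues such as the larval fat body, the organ of the fly that stores nutrients and secretes blood proteins much as a liver does, rely on them for protein synthesis, and the insulin and TOR pathways are known to adjust both ribosome production and the translation of these mRNAs. The genes were chosen by name: a symbol beginning with RpL or RpS (RpLP included), or the symbols sta and sop, which encode small subunit proteins under older names. This took 87 of the 14804 genes in the deposited tables. Of these, 50 belong to the large subunit and 37 to the small subunit. The names of mitochondrial ribosomal proteins (mRp) and of RNA polymerase subunits begin differently and were left out. Cytosolic ribosomal proteins that carry other names in these tables, such as Qm (RpL10) and oho23B (RpS21), were not members either.

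RNA of fat bodies, dissected without gonads from wandering larvae of Drosophila melanogaster, was sequenced in 3 control and 3 RasV12 libraries, each made from 40 larvae. Control larvae were the progeny of Bx Gal4 crossed with W1118, and RasV12 larvae the progeny of Bx Gal4 crossed with UAS-RAS V12, so both groups carried the driver and only the second carried the dominant-active Ras. The study describes Bx as driving expression in wing discs and salivary glands, and the fat body sampled here was not named as a target of the driver. Growth was on yeast-potato meal with no further treatment. Library 3 of the controls was sequenced in a run called 3A, which is used here, and again in a run called 3B.

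The values are FPKM, that is, fragments per kilobase of exon relative to the number of mapped fragments, and they were brought to a common scale by the 75th percentile of each library (scaled FPKM). The deposited confidence bounds gave about 2900626 to 7327931 fragments per library, of which 172975 to 437566 fell on ribosomal protein genes. All 8 fat body markers were abundant in every library, with a summed scaled FPKM of 115464 to 174500 in controls against 68146 to 117444 in RasV12 libraries. In such bulk samples fewer cells of a type and less RNA per cell cannot be told apart. Nothing in the labels says that the libraries of a group differ in more than the larvae pooled, and p-values measure the spread between these pools.

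The ribosomal protein genes fell into 2 classes by level. In every library 80 of the 87 members lay above an FPKM of 100, and the other 7 lay at or below 11.7, with no member between. Among the 80 abundant members FPKM spanned 268 to 3496 in control 1, 241 to 2935 in control 2 and 204 to 3764 in control 3. In the RasV12 libraries it spanned 239 to 3723, 226 to 2795 and 215 to 2581. The highest abundant member was thus up to 18.4 times the lowest within a library. The median abundant member had an FPKM of 1659, 1427 and 1371 in controls against 1536, 1261 and 1233 in RasV12 libraries. FPKM is already per length, so these levels can be set side by side between genes, but with care for the shortest ones. In runs 3A and 3B of control 3, RpL41 stood at 3764 and 5079 and RpL39 at 2884 and 4282.

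The 5 highest levels all belonged to proteins of the large subunit. RpL41, the smallest ribosomal protein, led the controls with a mean FPKM of 3398 ± 423 (SD, n = 3). It was followed by RpL39 (2503 ± 356), RpL36A (2500 ± 128), RpLP1 (2393 ± 146) and RpL15 (2356 ± 294). RpL39 and RpL36A differed by less than their spread, and so did RpLP1 and RpL15. RpLP1 and RpLP2 form, with RpLP0, the acidic stalk of the large subunit that recruits elongation factors. RpLP2 stood at 2192 and RpLP0 at 1453 in the control mean. RpL41 overlaps the gene NaCP60E in the tables, and reads of overlapping genes may have been shared between them.

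Together the 87 members made up 19.3%, 16.4% and 16.0% of the summed FPKM of the control libraries and 17.7%, 15.1% and 14.3% of that of the RasV12 libraries. The means were 17.3% ± 1.82 and 15.7% ± 1.75 (SD, n = 3 each), and the groups overlapped, because RasV12 library 1 lay above controls 2 and 3. The large subunit took 10.1% ± 1.07 in controls against 9.14% ± 1.07 in RasV12 libraries. The small subunit took 7.12% ± 0.749 and 6.56% ± 0.685. As a share of fragments, which weights a gene by its length, the members held 6.95%, 5.97% and 5.96% in controls against 6.63%, 5.54% and 5.17% in RasV12 libraries.

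On the common scale the abundant ribosomal protein mRNAs were lower on average in RasV12 fat bodies, by similar factors for nearly all genes, but the 3 RasV12 libraries did not move alike. The median scaled FPKM of the 80 abundant members was 1698, 1451 and 1695 in the controls. It was 1502, 1049 and 1224 in the RasV12 libraries. RasV12 library 1 therefore lay between the controls, while RasV12 libraries 2 and 3 lay under all of them. For 76 of the 80 members both RasV12 libraries 2 and 3 were below every control. For 52 of the 80 members RasV12 library 1 was above control 2. Without scaling, RasV12 libraries 2 and 3 were below every control for 63 members. These 2 libraries were set apart by the same values, and the share of all genes that meet these conditions was not computed.

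The members shifted as a block. Each gene's log2 scaled FPKM was expressed relative to its own mean over the 6 libraries, and the median of these deviations over the abundant members was 0.24, 0.02 and 0.28 in controls against 0.09, -0.43 and -0.20 in RasV12 libraries. The spread of the deviations between genes within a library was small beside this, with an SD of 0.07 to 0.11. Of the 480 values (80 genes in 6 libraries), 466 lay within 0.2 of the median of their library. On the common scale RasV12 library 2 was the lowest library for 78 of the 80 members, control 3 was the highest for 45 and control 1 for 33. In the FPKM as deposited, RasV12 library 3 was the lowest for 47 and RasV12 library 2 for 26. There control 1 was the highest for 52, RasV12 library 1 for 23 and control 3 for 4, so the order of single libraries depended on the scaling. Since the genes moved together in each library, counts of genes below do not add up independent observations.

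**Figure D1:**
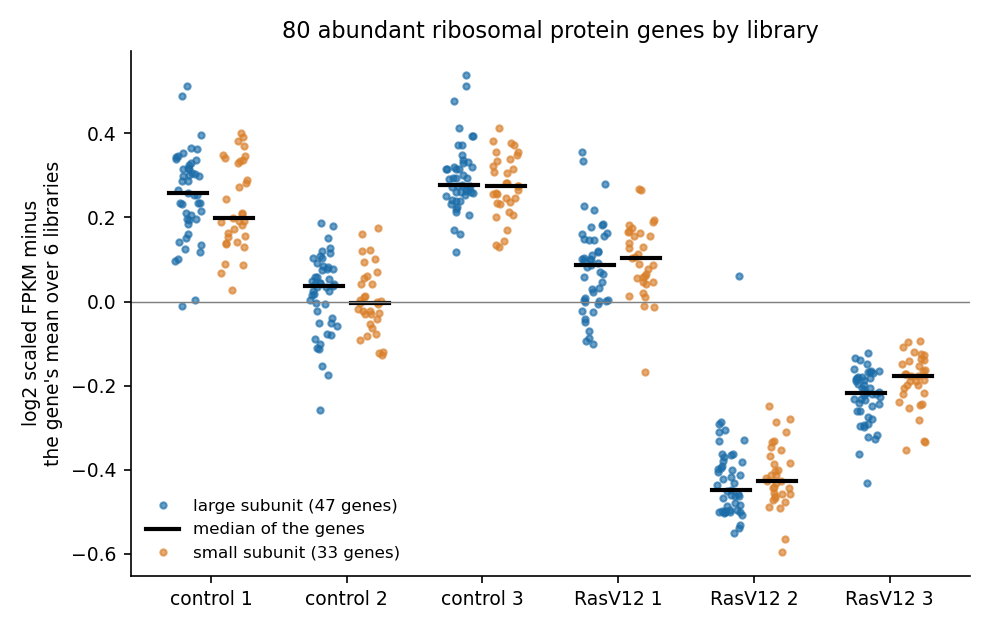
Each point is 1 of the 80 abundant ribosomal protein genes in 1 library, as log2 scaled FPKM minus that gene's mean over the 6 libraries, with large subunit genes in blue, small subunit genes in orange and black bars at the medians. RasV12 library 1 overlaps the controls, and RasV12 libraries 2 and 3 lie lower, with overall medians of -0.43 and -0.20.

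Fold changes between the groups were estimated with limma on log2(scaled FPKM + 1) over 7575 genes, among them 85 members. RpL10Aa and RpL37b were below the minimum mean FPKM of 1 and were not tested. RpL22-like, RpS10a and RpS28a had control means of 0.349, 0.773 and 0 and reached this minimum only through the RasV12 libraries. The filter thus favoured a positive fold change for them. No ribosomal protein gene passed an adjusted p of 0.05 (0 of 85), and 0.106% of all genes tested did. The lowest adjusted p of a member was 0.485 in limma. At an unadjusted p under 0.05, 12 of 85 members (14.1%) were lower in RasV12, against 4.11% of all genes tested. None was higher, against 5.29% of all genes tested. In 28 of 85 members (32.9%) every RasV12 library lay below every control, against 7.08% of all genes tested. No member had every RasV12 library above every control, against 7.67% of all genes tested.

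The log2 fold change was negative for all 80 abundant members, from -0.55 for RpL13 to -0.01 for RpL38, while 49.7% of all genes tested had a negative one. Other abundant genes were also mostly negative: 422 of the 598 with an FPKM above 100 in every library, a set described below. Without scaling, 75 of the 80 stayed negative and 5 turned positive. The median log2 fold change over the 87 members was -0.36, beside 0.00 over all genes tested. Without scaling both medians moved up, to -0.13 and 0.20, and the distance of the members from the median of all genes tested was -0.33, compared with -0.36 on the common scale. Both counts depended on the scale. Without scaling none of the members was lower at an unadjusted p under 0.05, against 99 of all 7575 genes tested. All deposited FPKM values of the RasV12 libraries lay below those of the controls for 5 members, against 124 of the 7575 genes. They all lay above the controls for 0 members, against 1347 of the 7575 genes.

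The count also rested on single libraries. Without RasV12 library 1, 40 members were lower at an unadjusted p under 0.05, and without RasV12 library 2 none was. Leaving out control 1, 2 or 3 gave 0, 1 and 1, and leaving out RasV12 library 3 gave 3. With run 3B in place of run 3A as control 3, none was. Over all genes tested the count moved as well. It was 228 of 7568 without RasV12 library 1, 153 of 7300 without RasV12 library 2 and 653 of 7592 without RasV12 library 3. Without control 1, 2 or 3 it was 202 of 7632, 139 of 7659 and 357 of 7682. With run 3B it was 255 of 7593. The median log2 fold change of the members was negative in each of these fits, between -0.49 without RasV12 library 1 and -0.23 without RasV12 library 2.

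**Figure D2:**
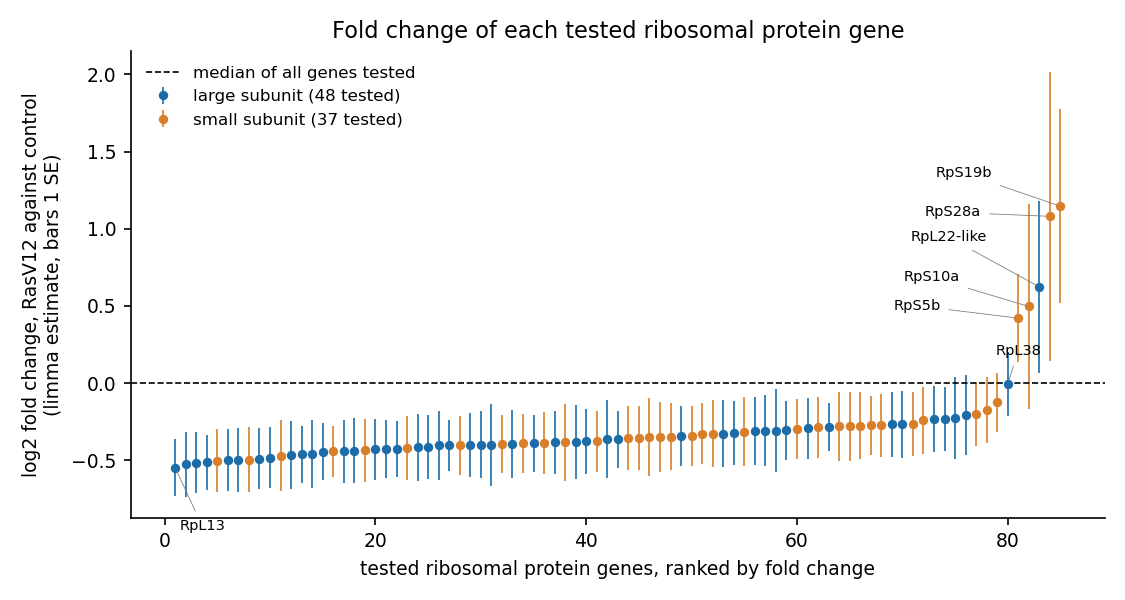
The log2 fold change (RasV12 against control, limma) of the 85 tested ribosomal protein genes is plotted in rank order with bars of 1 SE, large subunit in blue and small subunit in orange, and the dashed line marks the median of all genes tested. The 80 abundant genes form a narrow band from -0.55 (RpL13) to -0.01 (RpL38), and the 5 positive values are low paralogs with wide errors. Of these, RpL22-like, RpS10a and RpS28a reached the minimum mean FPKM only through the RasV12 libraries.

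The 5 members with the largest negative fold changes were RpL13, RpL3, RpL6 and RpL4 of the large subunit and RpS5a of the small subunit. RpL13 (FBgn0011272) lies on chromosome arm 2L from 9967312 to 9968495 in the BDGP5 build. Its scaled FPKM was 1262, 1168 and 1296 in controls against 957, 707 and 905 in RasV12 libraries. The groups did not overlap for RpL13, on the common scale or as deposited. Its log2 fold change was -0.55 with an SE of 0.19 and an adjusted p of 0.485 in limma. RpL13 overlaps the neighbouring gene Dref in the tables.

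RpL3 contributes to the peptidyl transferase region of the large subunit. RpL3 stood at 1930, 1503 and 1547 in controls against 1351, 951 and 1172 in RasV12 libraries, in scaled FPKM. RpL4 lines the exit tunnel, and its scaled FPKM was 1322, 1165 and 1202 in controls against 969, 738 and 892 in RasV12 libraries. The log2 fold changes were -0.52 ± 0.21 for RpL3, -0.52 ± 0.20 for RpL6, -0.51 ± 0.18 for RpL4 and -0.50 ± 0.20 for RpS5a (SE). In all 4 genes every RasV12 library was below every control on the common scale. Their adjusted p in limma was 0.510 for RpL4 and 0.531 for the others.

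The remaining 7 of the 12 members at an unadjusted p under 0.05 were RpL23A, RpL35A, RpL7A, RpL34b, RpL8, sop and RpL24. Their log2 fold changes lay between -0.50 for RpL23A and -0.40 for RpL24. The gene sop encodes RpS2, a small subunit protein at the entry of the mRNA channel. Its scaled FPKM was 1386, 1322 and 1389 in controls against 1043, 888 and 1095 in RasV12 libraries. The controls of sop agreed closely, and it had the smallest residual SD of the members, 0.12 on the log2 scale. Its log2 fold change was -0.44 ± 0.17 (SE), with an adjusted p of 0.531 in limma. Of these 12 genes, 10 belong to the large subunit and 2, sop and RpS5a, to the small subunit.

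RpS6, the small subunit protein phosphorylated by S6 kinase downstream of TOR, stood at 2045, 1688 and 1862 in controls against 1708, 1166 and 1348 in RasV12 libraries. One RasV12 library lay above control 2, so the groups overlapped. The log2 fold change of RpS6 was -0.42 ± 0.21 (SE), with an adjusted p of 0.574 in limma. The gene sta encodes RpSA, a protein at the back of the small subunit head. It stood at 1874, 1441 and 1561 in controls against 1496, 1063 and 1268 in RasV12 libraries, a log2 fold change of -0.35 ± 0.21 (SE) with overlapping groups.

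RpL32 was the internal reference of the qPCR in the study. Its deposited FPKM was 1881, 1562 and 1477 in controls against 1752, 1330 and 1313 in RasV12 libraries. Its scaled FPKM was 1926, 1589 and 1827 in controls against 1713, 1107 and 1304 in RasV12 libraries. On both scales RasV12 library 1 lay among the controls and the other two lay below them. The log2 fold change was -0.39 ± 0.22 (SE), close to the median of the members, and the adjusted p in limma was 0.606. The level of RpL32 thus moved with the other ribosomal proteins in these libraries.

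RpL38 departed most from the block. This gene (FBgn0040007, chromosome arm 2R, 403502 to 403961 in BDGP5) encodes a short large subunit protein known in mice for its effect on the translation of Hox mRNAs, and it was singled out after its values were seen. Its scaled FPKM was 1377, 1161 and 1684 in controls against 1508, 1449 and 1219 in RasV12 libraries. In RasV12 library 2, RpL38 was 0.49 above the median deviation of the abundant members on the log2 scale. This was the farthest of the 480 values. The log2 fold change of RpL38 was -0.01 ± 0.21 (SE), and its sign changed with the scaling and with the libraries used.

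RpL5, which with RpL11 carries the 5S ribosomal RNA into the large subunit, and RpL15, whose locus lies in the heterochromatin of the third chromosome, were the 2 abundant members whose scaled FPKM was highest in RasV12 library 1, where the deposited FPKM of 23 members was highest. RpL5 stood at 2739, 2069 and 2652 in controls against 2940, 1767 and 1894 in RasV12 libraries. RpL15 stood at 2732, 2120 and 2862 in controls against 2888, 1781 and 1701 in RasV12 libraries. Their log2 fold changes were -0.20 ± 0.26 and -0.31 ± 0.27 (SE), with RasV12 values on both sides of the controls. RpL11 stood at 1650, 1445 and 1727 in controls against 1514, 1115 and 1290 in RasV12 libraries.

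Both subunits were lower on the common scale. The median log2 fold change was -0.39 for the 50 large subunit genes and -0.33 for the 37 small subunit genes. At an unadjusted p under 0.05, 10 of 48 tested large subunit genes (20.8%) and 2 of 37 small subunit genes (5.41%) were lower. The share over all genes tested was 4.11%, so that of the small subunit was close to it. Every RasV12 library was below every control in 19 of the 48 (39.6%) and in 9 of the 37 (24.3%), against 7.08% of all genes tested. Whether the subunits differ was not tested. The median FPKM of the abundant small subunit genes divided by that of the large subunit genes was 1.04, 1.02 and 1.07 in controls against 1.09, 1.04 and 1.08 in RasV12 libraries. The means were 1.04 ± 0.0226 and 1.07 ± 0.0247 (SD, n = 3), and the groups overlapped. The 3 stalk proteins had log2 fold changes of -0.43 for RpLP2, -0.42 for RpLP0 and -0.23 for RpLP1. RpS27A and RpL40, which are made as fusions with ubiquitin, had -0.31 and -0.34.

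The fold change varied with the length of the protein. Across the 80 abundant members, the log2 fold change and the coding length in the BDGP6 annotation had a Spearman rho of -0.57. These are genes measured in the same 6 libraries, so the value is a description. The 26 shortest members, with 75 to 405 coding bases, had a median log2 fold change of -0.32, and none of them was among the 12 at an unadjusted p under 0.05. The 28 members of middle length had -0.36, with 3 of the 12. The 26 longest, with 570 to 1248 coding bases, had -0.44 and held the other 9.

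Single libraries also varied with length, with signs that differed between them. The deviations of a gene balance out over the libraries, so the values below depend on one another and on the fold change. The deviations of the members from their means had a rho with coding length of 0.64 in control 1, 0.58 in control 2 and -0.45 in control 3. In the RasV12 libraries rho was -0.51, -0.31 and -0.17. Control 3 therefore resembled the RasV12 libraries in this respect and controls 1 and 2 did not. The part of library differences in the length pattern was not tested.

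The repeated run of control 3 gives the spread between runs of 1 sample. Across the 80 abundant members the FPKM in run 3B was 0.809 times that in run 3A at the median, from 0.488 for RpS15Ab to 1.65 for RpL38. The SD of the log2 ratio was 0.26, and 11 members were higher in run 3B. Short members were the ones highest in run 3B relative to run 3A, and rho between the log2 ratio and coding length was -0.39. Run 3B was the shallowest, with 855836 fragments.

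**Figure D3:**
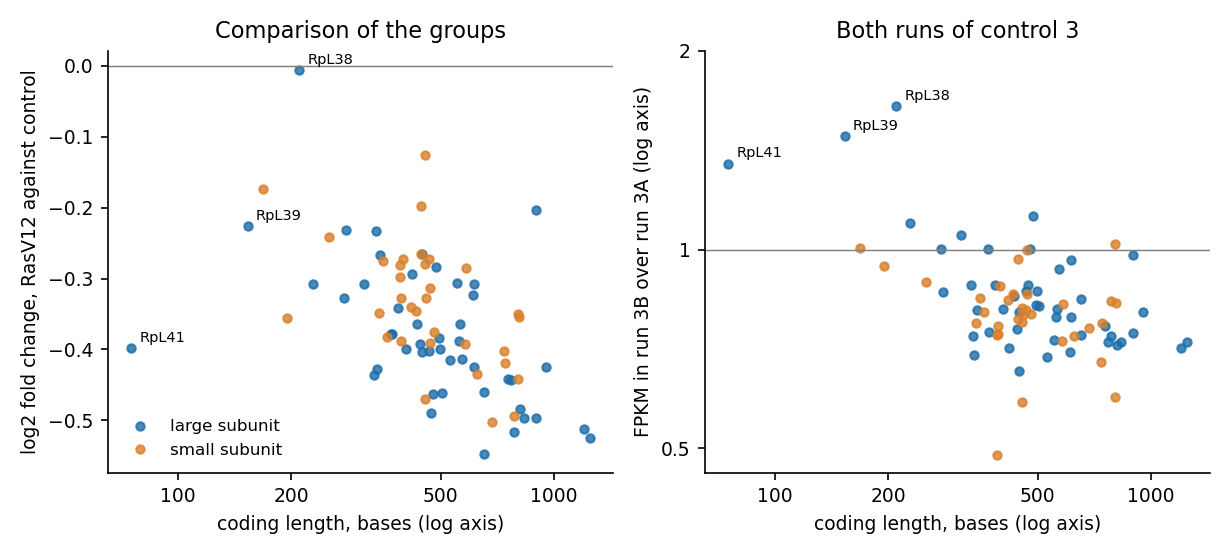
Coding length in bases (log axis) is plotted for the 80 abundant ribosomal protein genes against the log2 fold change between RasV12 and control (left) and against the FPKM ratio of run 3B to run 3A of control 3 (right, log axis). Longer genes have the more negative fold changes (rho -0.57), and RpL41, RpL39 and RpL38 are the genes farthest above 1 in the comparison of runs.

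Paralogs formed 10 pairs by symbol, which are copies of a gene whose products can take the same place in the ribosome. In 3 pairs both copies were abundant, and in 7 pairs a single copy supplied nearly all of the FPKM. RpL37A is the gene of another protein and is not the partner of RpL37a or RpL37b. The members of a pair can be so alike that fragments cannot be assigned to 1 copy with certainty, so the shares below depend on how the authors' software divided them.

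RpS14a and RpS14b are neighbours on the X chromosome, from 7827779 to 7828713 and from 7828937 to 7829832 in BDGP5. RpS14b held 42.0%, 42.3% and 41.5% of the FPKM of the pair in controls against 43.3%, 46.9% and 43.6% in RasV12 libraries. The means were 41.9% ± 0.424 and 44.6% ± 1.99 (SD, n = 3), and the groups did not overlap. RpL34a held 24.7%, 26.0% and 24.1% of its pair with RpL34b in controls against 26.2%, 27.3% and 28.5% in RasV12 libraries. These groups did not overlap either, and their SDs were 0.980 and 1.14 percentage points (n = 3).

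An exact two-sided permutation test of 3 against 3 libraries cannot go below p = 0.10, so that test could not pass 0.05 for either pair, and no other test of the shares was run. The shift within a pair was 0.16 for RpS14b to RpS14a and 0.18 for RpL34a to RpL34b on the log2 scale, and with run 3B as control 3 it was 0.02 and 0.03. RpS15Ab held 26.9%, 24.5% and 23.5% of its pair with RpS15Aa in controls against 26.2%, 23.7% and 25.6% in RasV12 libraries, with full overlap. The log2 fold changes of these 6 genes lay between -0.46 for RpL34b and -0.12 for RpS14b, and of them RpL34b alone was at an unadjusted p under 0.05.

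**Figure D4:**
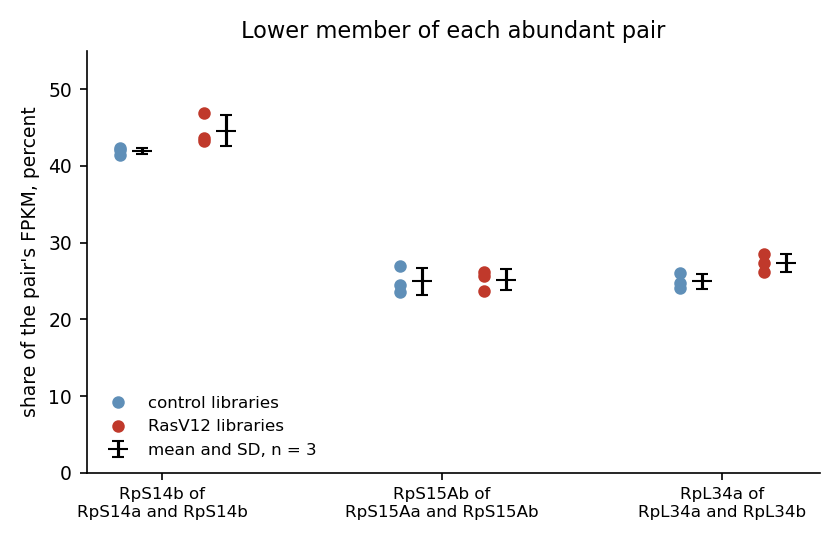
Points give, for each library, the share of a pair's summed FPKM held by its lower member, in percent, for the 3 pairs with both copies abundant, with control libraries in blue, RasV12 libraries in red and black marks at the mean with SD (n = 3). RpS14b and RpL34a took slightly larger shares in every RasV12 library than in any control, and the values of RpS15Ab overlap.

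The 7 low members were the minor copies of the other pairs: RpL10Aa, RpL22-like, RpL37b, RpS5b, RpS10a, RpS19b and RpS28a. All 7 reached their highest level in RasV12 library 2. Several of them, such as RpL22-like, RpS5b, RpS10a and RpS19b, are known from flies as copies used in the germ line. The 7 genes together had 31, 35 and 14 fragments in controls against 33, 152 and 51 in RasV12 libraries. Library 2 of RasV12 thus held more of these fragments than the other 2 RasV12 libraries together. It also had the most genes above 0 in the whole series, 11052. The controls had 8283 to 9213, and RasV12 libraries 1 and 3 had 9606 and 10233. The share of all low genes that were highest in RasV12 library 2 was not computed.

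RpS5b was the only low member with more than 10 fragments in every library. It had 25, 18 and 13 fragments in controls against 27, 61 and 30 in RasV12 libraries, or a scaled FPKM of 5.79, 3.52 and 7.72 against 7.87, 9.72 and 5.76. The groups overlapped. The log2 fold change of RpS5b on the log2(scaled FPKM + 1) scale was 0.42 ± 0.28 (SE), with an adjusted p of 0.657 in limma. RpS5b held 0.390% ± 0.139 of its pair with RpS5a in controls against 0.775% ± 0.283 in RasV12 libraries and these shares did not overlap. In run 3B of control 3 the FPKM was 6.02 for RpS5b, from 4 fragments, and 871 for RpS5a. In run 3A they were 6.24 and 1147. With run 3B as control 3 the shares overlapped.

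RpS19b had 2, 11 and 0 fragments in controls against 5, 29 and 7 in RasV12 libraries. Its log2 fold change was 1.15 ± 0.63 (SE), with an adjusted p of 0.599 in limma and overlapping groups. RpL22-like had 2, 3 and 1 fragments in controls against 1, 31 and 6 in RasV12 libraries. RpS10a, which overlaps the gene tau in the tables, had 2, 3 and 0 in controls against 0, 11 and 4 in RasV12 libraries. For these 3 genes RasV12 library 2 stood apart and RasV12 library 1 did not exceed the controls.

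RpL10Aa was listed at 0 in all controls and in RasV12 library 1, and had 17 fragments in RasV12 library 2 and 4 in RasV12 library 3. RpS28a was listed at 0 in all libraries but RasV12 library 2, where 2 fragments gave a scaled FPKM of 8.46 for this very short gene. RpL37b was listed at 0 in all but the same library, where it had 1 fragment. Counts of 3 fragments or fewer are at the floor of detection, and a listing at 0 does not show absence.

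The testis markers were also highest in RasV12 library 2. Of 15 testis genes, 14 were highest there, and the other, tomb, was at 0 in all libraries. This was not particular to testis genes, because 6 of 7 hemocyte (blood cell) markers were highest there too. The same held for 1 of 6 salivary gland and 1 of 4 gut markers, and for 0 of 8 fat body, 0 of 5 muscle and 0 of 4 imaginal disc markers. The share of all genes that were highest in this library was not computed. The summed scaled FPKM of the list was 4.88, 4.04 and 1.79 in controls against 13.9, 122 and 23.9 in RasV12 libraries. The testis-specific tubulin betaTub85D had 0, 1 and 0 fragments in controls against 0, 122 and 45 in RasV12 libraries. The germ line markers did not follow: the 5 genes summed to between 1.54 and 4.46 in the controls and between 1.90 and 4.65 in the RasV12 libraries, with nos at 0 throughout. The part of testis RNA in the levels of the low paralogs was not tested.

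**Figure D5:**
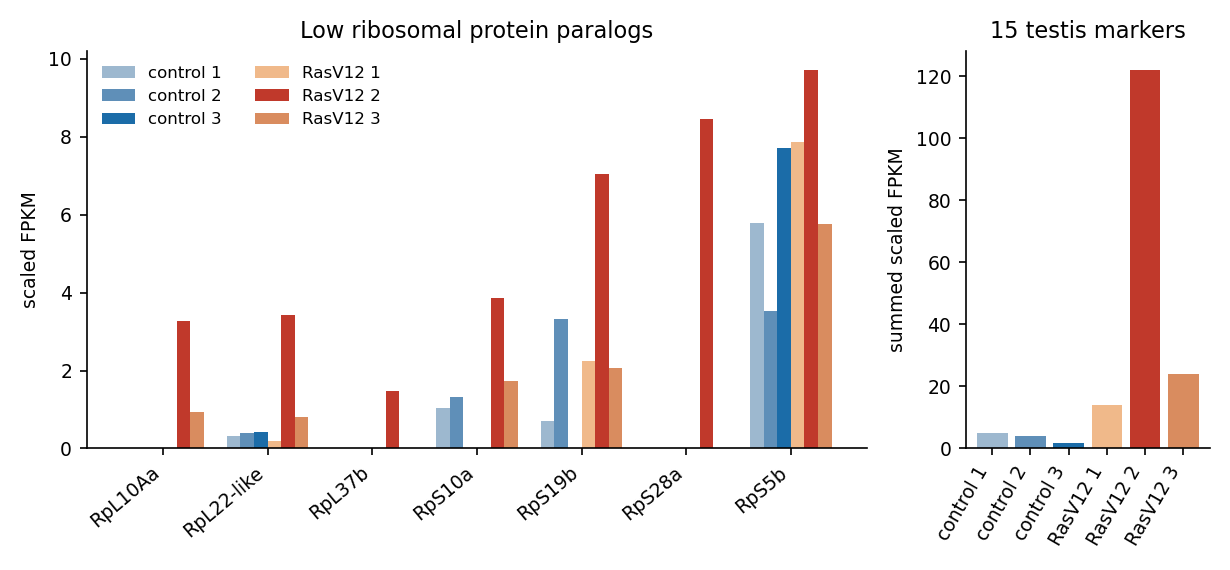
Bars give the scaled FPKM of the 7 low ribosomal protein paralogs in each library (left) and the summed scaled FPKM of 15 testis marker genes (right), with controls in blue and RasV12 libraries in orange and red. RasV12 library 2 has the highest bar for each of the 7 genes and for the testis markers, at 122.

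Markers of other cells also differed between the libraries. The summed scaled FPKM of the 7 hemocyte markers matched was 13.5, 57.0 and 33.4 in controls against 50.0, 100.5 and 108 in RasV12 libraries. RasV12 libraries 2 and 3 were thus highest in hemocyte markers and lowest in ribosomal proteins, while RasV12 library 1 was within the range of the controls for both. The sum of the fat body markers was lowest in RasV12 library 2, at 68146, and also below the controls in RasV12 library 1, at 103128. It was within their range in RasV12 library 3, at 117444. The genes of this list did not move alike. In RasV12 library 1, Lsp1alpha, Lsp1beta, Lsp1gamma, Rfabg and Lsd-1 lay below every control, but Lsp2, Fbp1 and Fbp2 lay within the range of the controls. In RasV12 library 2, Fbp1 alone lay within that range and the others lay below it. The 4 gut markers summed to 327, 34.9 and 1.89 in controls against 1.57, 1.03 and 1.14 in RasV12 libraries, and control 1, where they were highest, also had the largest share of ribosomal protein FPKM. The 6 salivary gland markers summed to 23.7, 21.0 and 7.40 in controls against 9.10, 7.36 and 11.7 in RasV12 libraries. The 5 muscle markers summed to 24.0, 26.1 and 65.6 in controls against 5.56, 26.1 and 28.0 in RasV12 libraries. The 4 imaginal disc markers lay between 32.1 and 43.8 in all libraries. The part of the cell mixture in the level of the ribosomal proteins was not tested.

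Other genes of protein synthesis differed in how closely they followed. The 10 elongation factors and associated genes had a median log2 fold change of -0.27. At an unadjusted p under 0.05, 2 of them (20%) were lower, against 4.11% of all genes tested. None was higher, against 5.29% of all genes tested. Rack1, a scaffold protein bound to the small subunit, stood at 1696, 1348 and 1422 in controls against 1253, 808 and 1019 in RasV12 libraries. The groups did not overlap, and the log2 fold change was -0.55 ± 0.22 (SE) with an adjusted p of 0.531 in limma. The elongation factor gene Ef2b had -0.46 ± 0.19 with no overlap. The poly(A)-binding protein gene pAbp had 0.05 ± 0.18.

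The 26 ribosome biogenesis genes matched had a median log2 fold change of -0.16. At an unadjusted p under 0.05, 2 of 23 tested (8.70%) were lower and none was higher, against 4.11% and 5.29% of all genes tested. Fib, the methyltransferase of nucleolar RNA, had 0.07 ± 0.21, and the Myc gene dm had 0.10 ± 0.35. The 72 mitochondrial ribosomal protein genes had a median of -0.04, with 1 of 70 tested (1.43%) lower, mRpL38, and none higher. As a further background, 598 other genes with an FPKM above 100 in every library had a median log2 fold change of -0.14. Of them, 422 had a negative log2 fold change. At an unadjusted p under 0.05, 7.36% of them were lower and 1.00% higher, against 4.11% and 5.29% of all genes tested. All RasV12 libraries were below all controls in 71 of them (11.9%), against 7.08% of all genes tested. This last set was chosen after the data had been seen, and whether the cytosolic ribosomal proteins differ from these lists was not tested.

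By newer symbols, 6 further genes are cytosolic ribosomal proteins or are named as like one. Those tested had log2 fold changes within the range of the abundant members, -0.55 to -0.01. Qm, which encodes RpL10, stood at 2406, 2052 and 2727 in controls against 2264, 1571 and 1802 in RasV12 libraries, a log2 fold change of -0.36 ± 0.22 (SE). For oho23B, which encodes RpS21, it was -0.28 ± 0.21. The groups overlapped for both. Of the genes named as like a ribosomal protein, CG5317 (RpL7-like) had -0.29, CG6764 (RpL24-like) -0.37 and CG1381 (RpLP0-like) -0.06. CG34182 (RpS28-like) was not tested and was above 0 only in RasV12 library 2.

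By position, the members were spread over the genome, with 22 on arm 3R, 20 on 2R, 16 on 2L, 15 on the X chromosome and 12 on 3L. RpS3A lies on the fourth chromosome and RpL15 in unplaced heterochromatin of 3L. The median log2 fold change of the abundant members was between -0.40 and -0.32 on the 5 main arms. Of the 87 genes, 26 contain annotated snoRNA genes, small RNAs that guide the modification of ribosomal RNA and are cut from introns. They hold 69 of the 249 snoRNA genes in the tables, 14 of them in RpS5a alone. Of the 69, 49 were listed at 0 in every library.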

How the data were processed

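Per the labels, fat body mRNA was sequenced on a HiSeq2000. The authors mapped reads with TopHat 1.0.14, removed duplicates and computed the deposited FPKM values per gene with Cufflinks 0.0.5 on BDGP5; strandedness was not given in the sources used here. Library 3 of the controls was taken from run 3A. The authors' table that merges both runs and run 3B itself served as alternatives. Fragments per gene were recovered from the deposited FPKM and its upper confidence bound as (2 × FPKM/(bound - FPKM)) squared. Intervals are not given, because fragments are not independent molecules.

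FPKM values were divided by the 75th percentile of each library, taken over genes above 0 in at least 1 library. Genes whose FPKM averaged 1 or more were fitted with limma 3.58.1 (R 4.3.3, trend) on log2(scaled FPKM + 1), and p-values were adjusted by Benjamini-Hochberg over all 7575 genes. The fit was tested on simulated data. Fold changes of low genes are understated by the pseudocount of 1. No set test was run.

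The members and lists were chosen with earlier results of these data known. Named genes were RpL32, RpS6, sta, sop, all paralogs, the 5 highest and lowest members, the 5 extremes of fold change in each direction and members listed at 0. Further genes were named for their role or, as stated, after their values were seen. Coding lengths came from the Ensembl BDGP6 annotation, with 76 members matched by gene ID and 11 by symbol. In the marker and pathway lists, 26 of 28 ribosome biogenesis genes and 7 of 8 hemocyte genes were matched, some through newer symbols. No promoter or protein sequences were used here. Loci start 1 base after the value in the tables, which count from 0. Alternatives changed the pseudocount, filter, scaling, variance model, control 3 and the libraries included.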

Additional observations from a re-analysis of the deposited data

Results flagged for a closer look

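Run 3B of control 3 entered the comparison of the groups only as an alternative to run 3A, and 3 abundant members had an FPKM there 1.35 to 1.65 times that of the highest control. RpL38 stood at 2244 in run 3B and at 1345, 1142 and 1362 in the controls. RpL39 stood at 4282 in run 3B and at 2447, 2178 and 2884 in the controls. RpL41 stood at 5079 in run 3B and at 3496, 2935 and 3764 in the controls. These are among the shortest members, with 210, 153 and 75 coding bases. The labels call run 3B a repeat sequencing of the sample of run 3A, so the larvae were the same.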

How the results depend on the processing

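No ribosomal protein gene passed an adjusted p of 0.05 in limma under any of the 18 alternatives. The count of members lower at an unadjusted p under 0.05 (12) became 5 with no filter, 0 with no scaling and 0 with run 3B as control 3. Leaving out 1 library gave 0 to 40. Over all genes tested the count was 310 of 11989 with no filter, 99 of 7575 with no scaling and 255 of 7593 with run 3B. The count of members higher (0) became 1 with the replicate block, and 0 to 1 when 1 library was left out. With no scaling the median log2 fold change was -0.13 for all members, -0.17 for the large subunit and -0.10 for the small subunit. Leaving out 1 library gave medians of -0.49 to -0.23, and a difference in the share of summed FPKM of -2.54 to -0.51 percentage points. No scaling turned the log2 fold changes of RpS14b (0.10), RpL38 (0.22), RpL5 (0.020), RpS15 (0.026) and RpS29 (0.050), and run 3B that of RpS15Ab (0.026). RpL38 also turned with the merged table (0.0051), without control replicate 3 (0.13) and without RasV12 replicate 3 (0.085), and ranged from -0.14 to 0.13 when 1 library was left out. The cause was not tested, and none of these genes passed the test. The shared replicate numbers are not stated to pair libraries, and deviations of same-numbered libraries correlated at 0.09, -0.17 and -0.15. The replicate block left 8 members lower at an unadjusted p under 0.05, while 202 of all 7575 genes tested were lower and 327 higher. With 3 libraries a group the exact two-sided p cannot go below 0.10, and members with few fragments are limited by depth.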
